A study of Mus musculus with 16 samples.

Results

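The comparison described here is that of BdP tumours with wild-type (WT) tumours over both treatments: 8 BdP libraries against 8 WT libraries, which are all 16 libraries of the series. BdP is a line made from B16F10, a pigmented mouse melanoma line. The sample titles call it deficient in Pros1 and the genotype label calls it a Pros1 knockdown. The groups were BdP tumours under cisplatin, BdP tumours under PBS, WT tumours under cisplatin and WT tumours under PBS, with 4 libraries each. All tumours were grown under the skin of the flank of C57BL/6J mice of both sexes that were 8 weeks old, and RNA came from end-stage tumours. Mice received cisplatin (a DNA-crosslinking platinum agent) at 5 mg/kg, or PBS as vehicle, in 2 rounds of 3 daily injections into the peritoneum from 8 days after implantation. A single BdP line was used, and whether it is 1 clone is not given in the sources used here, so low Pros1 and any other difference between the lines cannot be told apart. Nothing in the labels says whether replicates shared a litter or day.

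Pros1 encodes protein S, a vitamin K-dependent plasma glycoprotein that serves activated protein C as a cofactor and so restrains coagulation. Protein S also bridges phosphatidylserine on dying cells to the TAM receptors, the tyrosine kinases Tyro3, Axl and Mertk, for which Gas6 is the other ligand. TAM signalling in macrophages is known to promote the uptake of dying cells and to dampen inflammatory responses. Ptpn1 encodes PTP1B, the tyrosine phosphatase named in the title of the study.

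Levels are FPKM (fragments per kilobase, scaled for depth by the authors). Of 54532 genes in the table, 12319 reached 1 FPKM in at least 4 libraries and were tested. Differences are BdP minus WT on the log2(FPKM + 1) scale, with treatment as a covariate, and are given with moderated standard errors. This scale understates the change of low genes. A gene is called where its p in limma, adjusted by Benjamini-Hochberg over all genes tested, is below 0.05, and its groups are said not to overlap where all 8 BdP values lie on 1 side of all 8 WT values.

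Reads in genes numbered 18226985 to 27055771 in BdP libraries and 10051843 to 22763959 in WT libraries. Mitochondrial genes held 76.9% of reads in WT PBS 1 and 21.7% and 12.2% in replicates 4 and 3 of WT cisplatin, against at most 5.06% elsewhere. The pigment genes that mark melanoma cells were high in every library, with a summed level over 17 genes of 6295 to 7833 FPKM in BdP and 5747 to 10100 FPKM in WT tumours. Leukocyte content varied widely, since Ptprc (the pan-leukocyte gene CD45) had a lowest, median and highest level of 2.03, 8.97 and 20.9 FPKM in BdP tumours, against 0.19, 1.65 and 8.27 FPKM in WT tumours. Its groups overlap, and its difference of 1.55 ± 0.49 was not called (adjusted p = 0.0734). In bulk tumours, fewer cells of a type and less RNA per cell cannot be told apart.

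Pros1 itself was lower in every BdP tumour. Under PBS it had 1.61, 1.59, 1.58 and 1.24 FPKM in BdP tumours, against 9.77, 4.79, 5.89 and 5.42 FPKM in WT tumours. Under cisplatin it had 2.39, 2.21, 2.52 and 1.73 FPKM in BdP tumours, against 10.4, 11.5, 7.78 and 11.4 FPKM in WT tumours. The highest BdP value, 2.52 FPKM, lies below the lowest WT value, 4.79 FPKM, and no BdP library was at 0. The difference was -1.67 ± 0.12 (adjusted p = 1.68e-06). An exact two-sided permutation test within treatments gave p = 0.000408, the smallest that its 4900 splits allow, and 0.00245 after adjustment over the 6 genes of the axis. Pros1 (ENSMUSG00000022912) lies on chromosome 16 from 62854307 to 62929346 (GRCm38). The 250 bases before its start, from RefSeq (GRCm38.p6, plus strand, chr16:62854057-62854306), are printed because it is the gene that defines the BdP line.
Pros1: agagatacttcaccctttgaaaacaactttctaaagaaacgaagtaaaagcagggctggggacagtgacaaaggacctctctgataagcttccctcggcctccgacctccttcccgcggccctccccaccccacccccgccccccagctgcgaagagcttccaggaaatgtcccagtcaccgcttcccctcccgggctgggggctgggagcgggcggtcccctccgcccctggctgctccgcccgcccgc

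The ligand, receptors and phosphatase around protein S differed less. Gas6 had a lowest, median and highest level of 1.24, 3.08 and 5.39 FPKM in BdP tumours, against 1.13, 2.45 and 7.91 FPKM in WT tumours, a difference of 0.07 ± 0.21 (adjusted p = 0.858). Tyro3 differed by 0.05 ± 0.14 (adjusted p = 0.855). Axl had 2.75, 11.4 and 34.5 FPKM in BdP tumours, against 1.30, 3.50 and 27.8 FPKM in WT tumours. Its groups overlap, and its difference of 1.21 ± 0.47 was not called (adjusted p = 0.12). The exact permutation test of Axl gave p = 0.0347, or 0.104 after adjustment over the 6 genes. Mertk differed by 0.37 ± 0.18 (adjusted p = 0.201) and Ptpn1 by 0.20 ± 0.16 (adjusted p = 0.472). The summed pan-macrophage markers, in tumours where Axl and Mertk are also macrophage genes, ran from 504 to 2215 FPKM in BdP and from 335 to 2050 FPKM in WT tumours, and their part in these differences was not tested. None of the 14 genes tested in the list of the protein C pathway, coagulation and fibrinolysis was called, beside 6.1% of all genes tested.

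Across all genes, 367 were called higher in BdP tumours (2.98% of genes tested) and 385 lower (3.13%), or 6.1% in either direction. Most differences were small: 200 of the 367 and 248 of the 385 were below 0.5 in size, while 27 exceeded 1 upwards and 35 exceeded 1 downwards. The median difference was 0.48 among genes called higher and -0.44 among genes called lower, beside 0.006 over all genes tested. The 8 values of BdP and WT tumours did not overlap for 72 genes higher in BdP (0.584%) and 125 lower (1.01%), or 1.6% in either direction. Of these, 70 and 118 were also called. Of the 752 calls, 361 held in all 16 fits that leave out 1 library, 159 of them higher and 202 lower. The counts themselves moved with the libraries used. They were 901 higher and 650 lower without WT PBS 3, and 178 higher and 219 lower without WT cisplatin 1. They were 185 and 229 without BdP cisplatin 4, and 232 and 253 without BdP PBS 1. The count of genes higher was 228 without WT PBS 4, 234 without WT cisplatin 4, 233 without BdP PBS 4, 218 without BdP cisplatin 2 and 244 without BdP cisplatin 3. The count of non-overlapping genes higher in BdP was 136 without WT PBS 3.

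The balance of higher and lower calls depended on how libraries were scaled. On TPM, which divides each library by its own sum and so by its mitochondrial reads, 389 genes were called higher and 33 lower, and the median gene of the 12319 shifted by 0.48. With equal sums over genes that are neither mitochondrial nor haemoglobin genes, 55 were called higher and 38 lower, and the median gene shifted by 0.14. Relative to those shifts, all 752 called genes kept their direction on TPM and all 751 that were tested kept it under equal sums. These counts cannot test the directions, because both scalings multiply all genes of a library by the same factor. Each gene's difference then moves by nearly the same amount, apart from the pseudocount, and taking off the median shift nearly restores the deposited differences. As fitted, without taking off the shift, 519 of 752 kept their direction on TPM. Directions below are therefore relative to the typical gene of the deposited scaling.

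Among the genes that fell in BdP tumours without overlap were Myl9, Jph2, Sparc, Loxl2 and Lamb1. Myl9, a regulatory myosin light chain, had a lowest, median and highest level of 0.085, 0.796 and 1.85 FPKM in BdP tumours, against 4.496, 10.9 and 29.7 FPKM in WT tumours. It fell by 2.86 ± 0.34 (adjusted p = 0.000193), without overlap. Jph2, a junctophilin that holds calcium stores against the cell surface membrane, had the smallest p of all genes. It had 1.52, 2.09, 1.98 and 2.21 FPKM in BdP and 7.58, 7.40, 9.26 and 6.74 FPKM in WT tumours under PBS. Under cisplatin it had 2.02, 1.68, 1.69 and 1.69 FPKM in BdP and 7.81, 10.8, 8.80 and 7.46 FPKM in WT tumours. The highest BdP value lies well below the lowest WT value in both treatments, and the difference over both was -1.68 ± 0.09 (adjusted p = 4.09e-08). Jph2 lies on chromosome 2 from 163336242 to 163397993.

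Sparc, a secreted glycoprotein that binds collagen, was the most abundant of the 12 lower genes chosen by size, with 53.8, 61.2 and 84.7 FPKM in BdP tumours (lowest, median and highest), against 107, 173 and 204 FPKM in WT tumours. It fell by 1.31 ± 0.12 (adjusted p = 2.69e-05). Loxl2, one of the lysyl oxidases that link collagen and elastin fibres, had 2.53, 3.55 and 5.60 FPKM in BdP tumours, against 6.56, 9.98 and 12.2 FPKM in WT tumours, and fell by 1.16 ± 0.10 (adjusted p = 1.13e-05). Sparc and Loxl2 were the only called members among the 19 tested of 32 matrix glycoproteins and collagen crosslinking genes. Lamb1, the laminin beta 1 chain of basement membranes, had 0.268, 0.376 and 0.906 FPKM in BdP tumours, against 1.55, 3.60 and 5.46 FPKM in WT tumours. It fell by 1.59 ± 0.15 (adjusted p = 2.13e-05), and was the 1 called member of 5 laminin chains tested. All BdP values of Lamb1 lay below 1 FPKM, so it passed the filter through WT tumours alone. Beside these matrix and laminin counts, 3.13% of all genes tested were called lower.

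The promoters of Jph2, Sparc and Lamb1 are printed as those of genes with non-overlapping groups and small p, 250 bases before each start from RefSeq (GRCm38.p6). They are chr2:163397994-163398243 on the minus strand, chr11:55420081-55420330 on the minus strand and chr12:31265043-31265292 on the plus strand. Capitals mark CATGTG, found once, 61 bases before the start of Lamb1.
Jph2: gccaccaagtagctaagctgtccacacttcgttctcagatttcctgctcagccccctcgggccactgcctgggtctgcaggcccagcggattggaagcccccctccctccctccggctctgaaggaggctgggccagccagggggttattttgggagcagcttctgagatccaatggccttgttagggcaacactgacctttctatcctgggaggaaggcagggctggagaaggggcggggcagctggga
Sparc: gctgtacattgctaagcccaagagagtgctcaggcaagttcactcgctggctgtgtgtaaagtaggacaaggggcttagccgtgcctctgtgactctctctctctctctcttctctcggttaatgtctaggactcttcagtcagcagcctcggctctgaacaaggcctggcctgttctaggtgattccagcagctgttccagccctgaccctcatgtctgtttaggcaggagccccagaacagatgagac
Lamb1: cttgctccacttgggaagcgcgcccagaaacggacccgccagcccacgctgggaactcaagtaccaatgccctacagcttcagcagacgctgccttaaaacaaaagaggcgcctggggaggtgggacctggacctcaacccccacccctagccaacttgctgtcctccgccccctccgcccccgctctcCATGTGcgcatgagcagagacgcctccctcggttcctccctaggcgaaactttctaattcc

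Further genes fell without overlap. Ndufa4l2, a mitochondrial protein induced in hypoxia, had 0.146, 0.740 and 1.75 FPKM in BdP tumours, against 2.01, 5.24 and 11.2 FPKM in WT tumours, a difference of -1.80 ± 0.24 (adjusted p = 0.000505). Hoxd13, a homeobox factor of the posterior body and limbs, had 0.306, 1.19 and 2.02 FPKM in BdP tumours, against 3.61, 5.37 and 9.69 FPKM in WT tumours (-1.71 ± 0.20, adjusted p = 0.000166). Ndrg2, of the family regulated downstream of N-myc, had 0.954, 1.22 and 1.78 FPKM in BdP tumours, against 3.72, 5.95 and 10.5 FPKM in WT tumours (-1.69 ± 0.12, adjusted p = 1.68e-06). The rest were Uchl1, a ubiquitin hydrolase (-1.29 ± 0.19), Ddah2 of the dimethylarginine dimethylaminohydrolase family (-1.24 ± 0.18), Rnf113a2 (-1.10 ± 0.17) and Pafah1b3, a catalytic subunit of a platelet-activating factor acetylhydrolase (-1.07 ± 0.16), with adjusted p of 0.00106 to 0.00141. Rnf113a2 is a near copy of another gene, so reads of both may be mixed in it.

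Among protein-coding, non-overlapping genes with 5 FPKM or more on average in BdP tumours, those that rose included Hgsnat, Tcf7l1, Adgra2, Padi2 and Mtss1. Hgsnat, a lysosomal acetyltransferase of heparan sulfate breakdown, averaged 157 ± 29.3 FPKM in BdP tumours and 56.3 ± 13.5 FPKM in WT tumours (SD, n = 8 each). Its lowest BdP tumour had 122 FPKM and its highest WT tumour 81.1 FPKM. It rose by 1.47 ± 0.14 (adjusted p = 3.02e-05). Tcf7l1, a factor of the TCF/LEF family that binds Wnt target genes, had a lowest, median and highest level of 11.5, 16.3 and 18.1 FPKM in BdP tumours, against 3.78, 7.85 and 10.7 FPKM in WT tumours (0.95 ± 0.15, adjusted p = 0.00223). Adgra2, an adhesion receptor that acts in Wnt7 signalling, had 12.2, 13.3 and 18.2 FPKM in BdP tumours, against 4.34, 6.91 and 11.6 FPKM in WT tumours (0.95 ± 0.15, adjusted p = 0.00161). In both, the groups come close to each other without overlapping.

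Padi2, an enzyme that converts arginine in proteins to citrulline, had 12.7, 15.3 and 18.3 FPKM in BdP tumours, against 6.07, 8.10 and 11.99 FPKM in WT tumours (0.81 ± 0.11, adjusted p = 0.00071). Mtss1, a protein that bends membranes and binds actin, had 7.23, 8.63 and 10.1 FPKM in BdP tumours, against 3.48, 4.74 and 5.32 FPKM in WT tumours (0.80 ± 0.09, adjusted p = 0.000122). Ptgds, a prostaglandin D synthase, was the most abundant of the 12 higher genes chosen by size, with 502, 571 and 657 FPKM in BdP tumours, against 292, 357 and 456 FPKM in WT tumours (0.66 ± 0.10, adjusted p = 0.00175). Il10rb, a receptor subunit shared by interleukin 10 and related cytokines, rose by 0.66 ± 0.10 (adjusted p = 0.00141). Hip1r, which links clathrin coats to actin, rose by 0.85 ± 0.13, Nipal3 by 0.72 ± 0.15, Sbno2 by 0.70 ± 0.12 and Mppe1 by 0.64 ± 0.10, with adjusted p of 0.00141 to 0.013. Pcna-ps2 rose by 1.56 ± 0.18 (adjusted p = 0.000122), but as a copy of Pcna it may share reads with it. Gm45847, called for its small p (1.45 ± 0.15, adjusted p = 5.42e-05), had overlapping groups, at 4.00 to 8.12 FPKM in BdP and 0.673 to 4.56 FPKM in WT tumours.

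**Figure D1:**
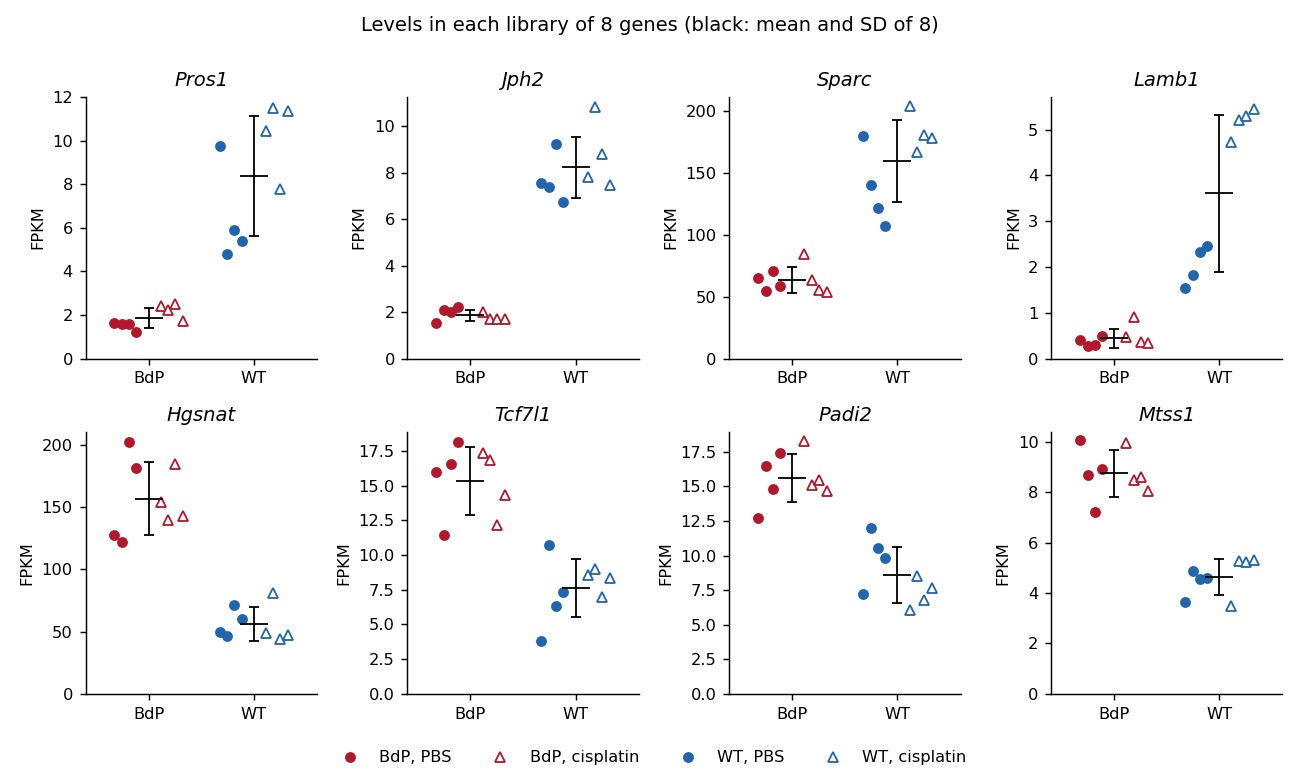
FPKM in each library for 8 named genes, BdP left and WT right in each panel, with filled circles for PBS, open triangles for cisplatin, and a bar for the mean and SD of 8 libraries. Pros1, Jph2, Sparc and Lamb1 are lower and Hgsnat, Tcf7l1, Padi2 and Mtss1 higher in all 8 BdP libraries than in any WT library.

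The promoters of Tcf7l1 and Padi2 stand for genes that rose with non-overlapping groups (RefSeq, GRCm38.p6, chr6:72789046-72789295 on the minus strand and chr4:140906110-140906359 on the plus strand). Neither holds the motifs that were searched on both strands: GGAATG, the core bound by TEAD factors, and the E-boxes CATGTG and CACGTG, which MITF and related factors bind.
Tcf7l1: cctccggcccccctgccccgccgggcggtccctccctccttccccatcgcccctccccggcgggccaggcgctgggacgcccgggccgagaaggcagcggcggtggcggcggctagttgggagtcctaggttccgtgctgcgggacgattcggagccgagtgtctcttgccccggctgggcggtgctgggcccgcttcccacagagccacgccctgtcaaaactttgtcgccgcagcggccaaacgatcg
Padi2: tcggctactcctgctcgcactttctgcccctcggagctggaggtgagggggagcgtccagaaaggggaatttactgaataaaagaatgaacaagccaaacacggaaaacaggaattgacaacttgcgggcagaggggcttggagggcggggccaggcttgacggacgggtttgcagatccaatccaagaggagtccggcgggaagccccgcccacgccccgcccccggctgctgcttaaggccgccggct
Promoters in the table covered 231 genes called higher, 294 called lower and 8884 of all genes tested. GGAATG stood in 10.4% of promoters of genes called higher, 9.52% of those called lower and 10.1% of all tested. CATGTG stood in 8.66%, 6.80% and 7.53% of the same sets, and CACGTG in 11.3%, 9.86% and 8.75%. These shares are descriptions of the letters in 250 bases and were not tested.

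Every one of the 752 called genes differed in the same direction under PBS and under cisplatin, a property that the additive fit over both treatments favours. The libraries of each treatment, which are separate tumours, were also fitted alone. Under cisplatin alone 251 genes were called (2.04%), 99 higher and 152 lower. Under PBS alone 3 were called (0.0244%), 1 higher and 2 lower, while 1442 had an unadjusted p below 0.05. Of the genes called under cisplatin alone, 94 of 99 higher genes (94.95%) and 132 of 152 lower genes (86.8%) had the same sign in the PBS libraries, beside 65.5% of all genes tested. Their median difference was 0.72 under cisplatin and 0.49 under PBS for the higher genes, and -0.70 under cisplatin and -0.40 under PBS for the lower ones. The genes called in each treatment alone were Jph2 and Ndrg2, both lower. Jph2 differed by -1.80 ± 0.12 under cisplatin (adjusted p = 0.00058) and by -1.57 ± 0.14 under PBS (adjusted p = 0.013). Ndrg2 differed by -1.997 ± 0.15 under cisplatin (adjusted p = 0.00082) and by -1.38 ± 0.14 under PBS (adjusted p = 0.022). Pros1 differed by -1.80 ± 0.14 under cisplatin (adjusted p = 0.00082) and by -1.54 ± 0.20 under PBS, where it was not called (adjusted p = 0.0807). The count of genes called in each treatment alone was 0 without WT PBS 2, WT PBS 3, WT PBS 4, BdP PBS 1, BdP PBS 2 or BdP PBS 4.

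**Figure D2:**
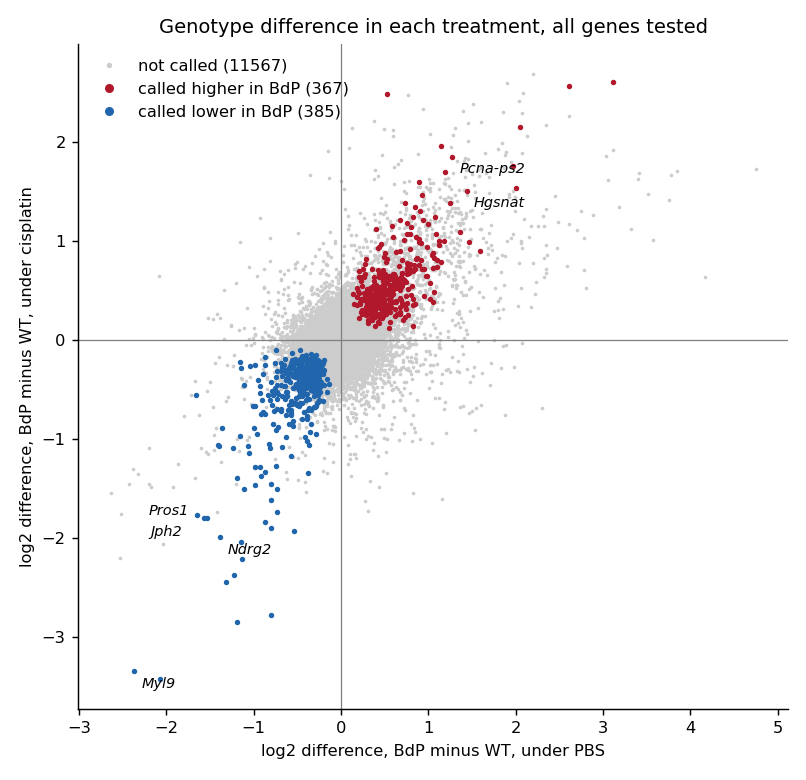
Each point is 1 of 12319 genes, with its BdP minus WT log2 difference under PBS (4 against 4 libraries) on the horizontal axis and under cisplatin (4 against 4) on the vertical axis. The 367 genes called higher and 385 called lower over both treatments lie to the upper right and lower left of 0.

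The interaction of genotype and treatment, tested in limma, was called for 0 genes (0%), while 691 genes (5.61%) had an unadjusted p below 0.05. It was called for 1 gene without WT PBS 4 and for 1 gene without BdP cisplatin 4. Lamb1, taken up after its values were seen, was not called for an interaction (adjusted p = 0.486). It differed by -2.04 ± 0.13 under cisplatin and by -1.15 ± 0.17 under PBS. Its BdP tumours stayed below 1 FPKM in both treatments, while WT tumours had 4.74 to 5.46 FPKM under cisplatin and 1.55 to 2.46 FPKM under PBS.

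All lists, those above and those below, were chosen with earlier results of these data known. Shares above those of all genes tested may follow from that choice, and are descriptions. Among the other lists, actin regulators had calls in both directions. Of 22 tested, Mtss1 and Enah rose (9.09%, beside 2.98% of all genes tested) and 4 fell, among them Fscn1, Specc1 and Pfn2 (18.2%, beside 3.13% of all genes tested). Fscn1, which bundles actin filaments, had 1.73, 3.98 and 12.4 FPKM in BdP tumours, against 7.14, 15.7 and 21.6 FPKM in WT tumours (-1.35 ± 0.29, adjusted p = 0.0139, groups overlapping). Fscn1 is also a marker of mature dendritic cells, whose other 9 tested markers had positive differences. Enah, which extends actin filaments, rose by 0.81 ± 0.16 (adjusted p = 0.00839), Specc1 fell by 0.78 ± 0.17 (adjusted p = 0.0134) and Pfn2, a profilin, fell by 0.56 ± 0.12 (adjusted p = 0.0142). Of 16 smooth-muscle-type contractile genes and SRF targets tested, Myl9 and the calponin Cnn3 fell, beside 3.13% of all genes tested. Cnn3 fell by 0.49 ± 0.09 (adjusted p = 0.00467). Of 11 collagens and fibroblast markers tested, Col4a1 and Col4a2 were called higher, beside 2.98% of all genes tested. They are the paired chains of basement membrane collagen. Col4a2 had 10.3, 18.2 and 23.7 FPKM in BdP tumours, against 5.44, 7.67 and 12.1 FPKM in WT tumours (0.95 ± 0.18, adjusted p = 0.00602). Col4a1 differed by 0.73 ± 0.20 (adjusted p = 0.0393) and was called in 7 of the 16 fits that leave out 1 library.

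The calcium store genes held 11 tested members, with Jph2 lower and Stim2 and Itpr3 higher. Of all genes tested, 3.13% were called lower and 2.98% higher. Stim2, a sensor of calcium in the endoplasmic reticulum, rose by 0.35 ± 0.07 (adjusted p = 0.00658). Itpr3, a calcium release channel, differed by 0.97 ± 0.26 (adjusted p = 0.0385), a call that held in 6 of 16 fits that leave out 1 library. Of 26 Wnt pathway genes tested, 3 rose (Tcf7l1, Adgra2 and the co-receptor Lrp5; 11.5%, beside 2.98% of all genes tested) and none was called lower. Lrp5 differed by 0.37 ± 0.10 (adjusted p = 0.0384, 6 of 16 fits). Of 39 lysosomal genes tested, Hgsnat, Npc1, Lamp1 and Tfeb were called higher (10.3%, beside 2.98% of all genes tested) and none lower. Npc1, a cholesterol transporter of the lysosome, rose by 0.55 ± 0.10 (adjusted p = 0.00616). Lamp1, a lysosomal membrane protein, differed by 0.27 ± 0.07 (adjusted p = 0.0352), and Tfeb, a regulator of lysosomal genes, by 0.29 ± 0.08 (adjusted p = 0.0387), each called in 5 of 16 such fits. The lysosomal median was 0.06, beside 0.006 over all genes tested.

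Of 27 pigment genes and melanocyte regulators tested, 3 were called (11.1%, beside 6.1% of all genes tested). Of 17 pigment genes tested, Myo5a, a melanosome motor, was called higher (0.31 ± 0.08, adjusted p = 0.0417, 4 of 16 fits) and Gpnmb, a melanosome glycoprotein, lower (-0.42 ± 0.10, adjusted p = 0.0262). Without BdP cisplatin 2 and without BdP cisplatin 4 the call of Gpnmb was lost (adjusted p = 0.0577 and 0.0555). Of 10 melanocyte lineage regulators tested, Kit, the receptor of stem cell factor, was the 1 called. Kit had 2.55, 2.91 and 7.19 FPKM in BdP tumours, against 0.714, 1.21 and 2.01 FPKM in WT tumours, without overlap (1.09 ± 0.17, adjusted p = 0.00167).

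Over 6 lists of proliferation, death and stress genes, 11 of 162 distinct genes tested were called (6.79%), close to the 6.1% of all genes. Of these, 10 were lower (6.17%, beside 3.13% of all genes tested) and 1 higher. Of 32 cell cycle genes tested, 28 had negative differences, while 51.1% of all genes tested had positive ones. Ccna2, cyclin A2, was the 1 called, beside 3.13% of all genes tested called lower. It had 16.1, 19.5 and 21.6 FPKM in BdP tumours, against 22.8, 24.2 and 27.3 FPKM in WT tumours, without overlap (-0.35 ± 0.07, adjusted p = 0.00616). The cell cycle median was -0.19, and on TPM it was 0.33 as fitted and -0.15 relative to the shift. Of 35 replication genes tested, 2 were called lower, among them Mcm7 (-0.20 ± 0.05, adjusted p = 0.0382), which was called in 7 of 16 leave-one-out fits. Of 27 p53 targets tested, Ddit4l fell by 0.81 ± 0.16 (adjusted p = 0.00675). Of 29 Bcl2 family and caspase genes tested, Bak1 and Bok, both pro-apoptotic, and Casp6 were lower, with differences of -0.50 ± 0.12, -0.65 ± 0.16 and -0.47 ± 0.11 (adjusted p of 0.0207 to 0.0312). The call of Bok held in 10 of 16 such fits. Among 25 genes of the unfolded protein and integrated stress response, the sensor Atf6 rose by 0.62 ± 0.12 (adjusted p = 0.00943). The chaperone Canx was called lower there by 0.30 ± 0.08 (adjusted p = 0.0348, 8 of 16 fits). Of 18 heat shock chaperones, Hspb1 and Hsp90ab1 were called lower. Hspb1 ranged from 0.589 to 7.94 FPKM in BdP and from 4.47 to 36.5 FPKM in WT tumours (-1.79 ± 0.46, adjusted p = 0.0318, 10 of 16 fits), and Hsp90ab1 differed by -0.30 ± 0.08 (adjusted p = 0.0428, 3 of 16 fits). On TPM as fitted, the differences of Cnn3, Gpnmb, Ccna2, Mcm7, Bak1, Canx and Hsp90ab1 were positive.

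The largest positive list medians were those of MHC class II, B and plasma cell, T cell, dendritic cell and cytotoxic genes. Over 7 leukocyte lists, which also hold macrophages and neutrophils, 2 of 113 distinct genes tested were called (1.77%, beside 6.1% of all genes). Lists of immune checkpoints, the interferon gamma response and MHC class I had medians of 0.77, 0.75 and 0.74, with 0 called. MHC class II genes differed by a median of 1.89 over 11 tested, all positive and 0 called, B and plasma cell genes by 1.67 over 24, and T cell genes by 1.32 over 21. Cd74, the invariant chain of MHC class II, had a lowest, median and highest level of 136, 667 and 1991 FPKM in BdP tumours, against 9.02, 133 and 880 FPKM in WT tumours. Its difference of 2.44 ± 0.83 was not called (adjusted p = 0.0861). Trac, the T cell receptor alpha constant gene, had 3.77, 17.6 and 57.3 FPKM in BdP tumours, against 0, 1.97 and 20.1 FPKM in WT tumours (2.26 ± 0.71, adjusted p = 0.0705). Igkc, the kappa light chain, spanned 7.72 to 965 FPKM in BdP and 0.962 to 172 FPKM in WT tumours (3.24 ± 1.07, adjusted p = 0.0806). The groups overlap in all of these, and the range within BdP tumours exceeds the gap between the medians. Lyz2, a lysozyme of macrophages and neutrophils, differed by 0.87 ± 0.52 (adjusted p = 0.299).

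Cytotoxic and NK genes had a median of 0.98, with Ctsw, a cathepsin of NK and CD8 T cells, the 1 called of 20 (2.10 ± 0.57, adjusted p = 0.0401, 5 of 16 fits). Type I interferon genes had a median of 0.69 with all 26 tested differences positive, and Irf9 and Ddx58 were called higher (7.69%, beside 2.98% of all genes tested). Irf9, the DNA-binding part of the interferon-activated ISGF3 complex, had 4.61, 6.07 and 9.22 FPKM in BdP tumours, against 2.09, 3.16 and 7.70 FPKM in WT tumours (0.75 ± 0.18, adjusted p = 0.0234). Without WT cisplatin 1 its adjusted p was 0.0522. Ddx58, the RNA sensor RIG-I, differed by 0.87 ± 0.22 (adjusted p = 0.0314, 6 of 16 fits). Nlrc5, the activator of MHC class I genes, missed the threshold narrowly (1.06 ± 0.30, adjusted p = 0.05). With the Ptprc level of each library as a further covariate, the differences of Irf9, Ddx58 and Ctsw were 0.32, 0.32 and 0.46 and none was called. Pros1 differed by -1.59, Jph2 by -1.71 and Hgsnat by 1.62. Over all genes, 130 of the 752 calls remained with that covariate, 0 with the opposite sign. Ptprc itself differed by 1.55 between the genotypes, so the covariate may also take up part of the genotype difference. With it the standard error of Pros1 was 0.157, against 0.123 without. The part of leukocyte content in any of these calls was not tested. Macrophage genes had a median of 0.66 over 19 tested, dendritic cell genes 1.16 over 10, neutrophil genes -0.34 over 8, endothelial genes -0.09 over 5 and erythroid genes -0.65 over 9, and Fscn1 was the 1 call among them. The 15 mitochondrially encoded genes had negative differences with a median of -1.28 and 0 called; 3 WT libraries were rich in such reads.

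Over 9 lists of metabolism, repair, adhesion and signalling, 10 of 194 genes tested were called (5.15%), near the 6.1% of all genes. Gsta4, a glutathione transferase, rose by 0.95 ± 0.16 (adjusted p = 0.00353), and Coq8a, which acts in coenzyme Q synthesis, by 0.77 ± 0.16 (adjusted p = 0.00959), as the 1 call of 24 and 13 genes tested. Of 19 semaphorins, plexins and neuropilins tested, Sema7a rose by 0.66 ± 0.16 (adjusted p = 0.0224, 15 of 16 fits) and the plexin Plxnd1 fell by 0.58 ± 0.11 (adjusted p = 0.00827). Of 25 hypoxia and glycolysis genes, the carbonic anhydrase Car9 fell by 0.42 ± 0.10 (adjusted p = 0.0203). Calls that held in fewer fits were Sdhc, a subunit of respiratory complex II (0.36 ± 0.09, 9 of 16), Smad4 of TGF-beta signalling (0.29 ± 0.07, 11 of 16) and Itga5, a fibronectin receptor subunit (-0.38 ± 0.11, 4 of 16). On TPM as fitted, Car9 and Itga5 had positive differences.

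**Figure D3:**
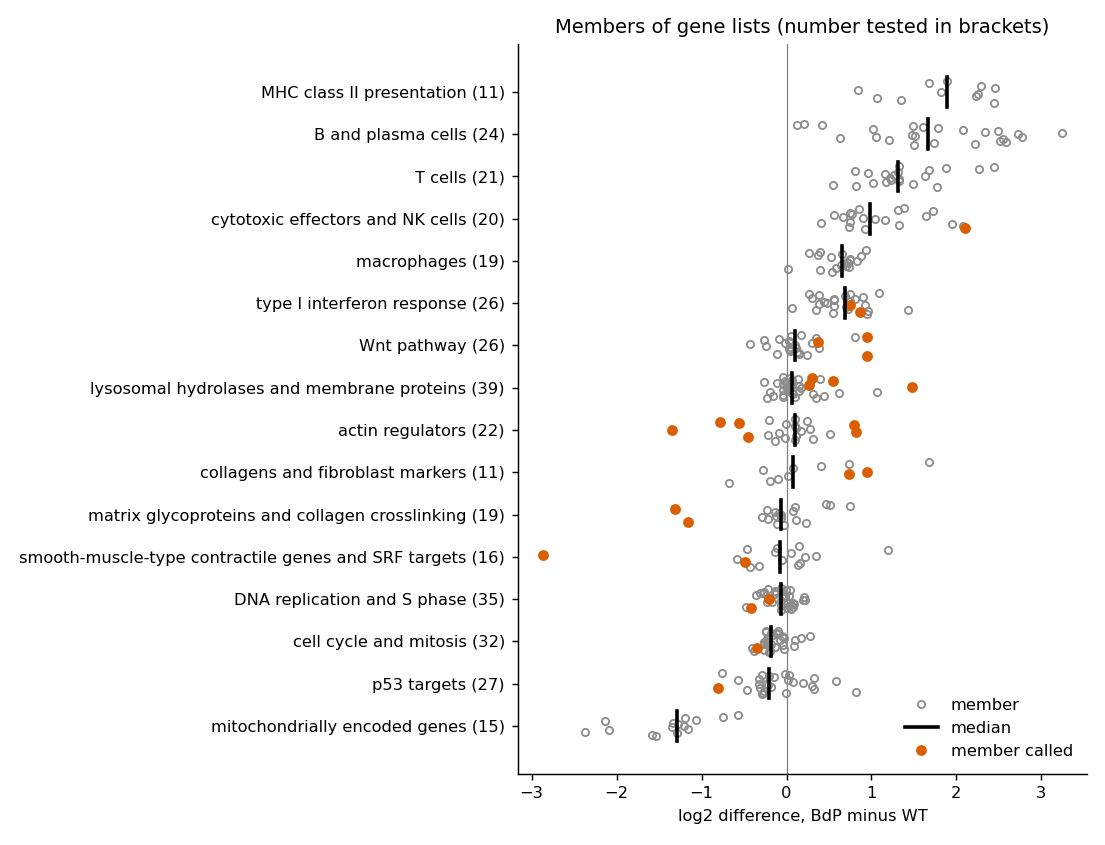
BdP minus WT log2 difference of each tested member of 16 gene lists (points), the members called (filled) and the list median (bar), under the deposited scaling. The MHC class II, B and plasma cell, T cell and cytotoxic lists lie furthest right, with 1 filled point in the cytotoxic list. The filled points of the actin list lie on both sides of 0. On TPM as fitted, all lists shown but the mitochondrially encoded one have positive medians.

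The deposited table assigns a transcription factor family to 748 of the genes tested, of which 27 were called higher (3.61%, beside 2.98% of all genes tested) and 16 lower (2.14%, beside 3.13%). Etv4, an ETS factor, had 0.204, 0.430 and 0.671 FPKM in BdP tumours, against 1.33, 2.22 and 3.37 FPKM in WT tumours (-1.13 ± 0.13, adjusted p = 0.000122). It passed the filter through WT tumours alone. Zfp991, a zinc finger gene, fell by 0.94 ± 0.12 (adjusted p = 0.000285). Foxo4, a forkhead factor restrained by insulin signalling, rose by 0.49 ± 0.07 (adjusted p = 0.000714). None of these 3 had overlapping groups, and with Hoxd13 they are among the 5 factors with the smallest p. This list was taken from the table after the values were seen.

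Some genes of the 54532 in the table had reads in every library of 1 genotype and none in the other. Of these, 4 had no reads in BdP and 2 none in WT tumours. They were also chosen after their values were seen, so large fold values follow from the choice. Lonrf2, Btnl2 and AC125149.1 did not pass the filter and were not tested. Nr5a1, Gm49497 and Btn2a2, with no reads in BdP tumours, passed it through WT tumours alone. Nr5a1, a nuclear receptor of steroid-forming tissues, had 0 reads in all 8 BdP tumours and 0.202, 1.81 and 3.14 FPKM (lowest, median and highest) in WT tumours. By its WT mean of 1.56 FPKM it was at least 453-fold lower in BdP tumours, taking 3 reads over the 8 libraries as the floor. Fold values here and below set the mean of the genotype with reads against that floor. They are not bounds for single tumours, and the lowest lie below the mean. The noncoding RNA gene Gm49497 was at least 332-fold lower and Btn2a2, a butyrophilin, at least 242-fold lower by the same floor. Lonrf2, at 0.0163 to 0.454 FPKM in WT tumours, was at least 97.2-fold lower. In the other direction, Btnl2, a butyrophilin-like gene, had 0.0121 to 0.473 FPKM in BdP tumours and 0 reads in WT tumours, at least 27.9-fold higher by that floor. AC125149.1 had 0.157 to 4.41 FPKM in BdP tumours and 0 reads in WT tumours, at least 12.9-fold higher. Floors cover counting error only.

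Called genes were concentrated on a few chromosomes. Chromosomes 1, 3, 8, 17 and 18 held 23.4% of the genes tested and 46.1% of those called, and 12.04% of their genes were called, against 4.29% elsewhere. These chromosomes, and the boundaries used below, were chosen after the values were seen, so the shares are descriptions. Chromosome 18 had 60 genes higher and 1 lower of 305, with a median difference of 0.22, and all 12 runs of 25 neighbouring genes had positive medians, of 0.17 to 0.24. Chromosome 8 had 55 higher and 4 lower of 350 genes up to 83.9 Mb, where all 14 runs were positive (0.13 to 0.32), but 2 higher and 6 lower of 325 genes from 84 Mb on, where run medians lay between -0.09 and 0.07. Chromosome 1 had 42 higher and 0 lower of 345 genes from 119.5 Mb on, with 14 of 14 runs positive, and 3 higher and 13 lower of 350 genes before that.

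Chromosome 3 went the other way, with 98 genes lower and 8 higher of 596, a median of -0.17 and 23 of 24 runs negative. Chromosome 17 had 49 lower and 6 higher of 611, a median of -0.13 and 23 of 24 runs negative. Its 1 positive run, at 34.1 to 34.9 Mb, holds MHC class II genes, had a median of 0.84 and included 2 genes called lower and 0 higher. The highest run of chromosome 1, at 171.8 to 174 Mb, lies among immune receptor and interferon-inducible genes, between Cd84 and Ifi205, with a median of 0.66. On TPM as fitted, the medians of chromosomes 3 and 17 were 0.27 and 0.33, and relative to the shift they were -0.21 and -0.15.

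**Figure D4:**
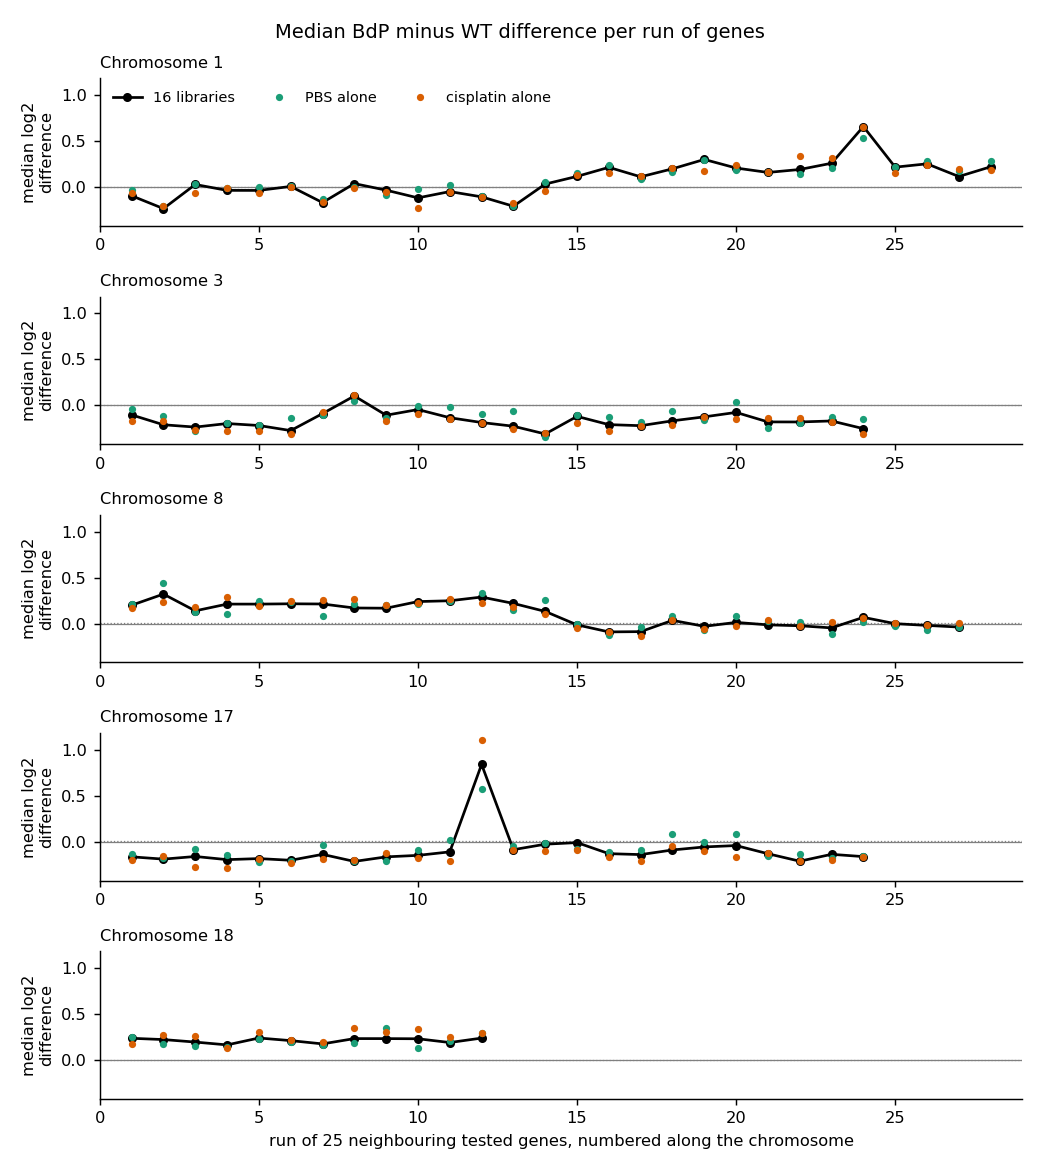
Median BdP minus WT log2 difference of runs of 25 neighbouring tested genes on 5 chromosomes, numbered along each chromosome, over 16 libraries (black) and in each treatment alone (green for PBS, orange for cisplatin). Chromosome 18 stays near 0.2 throughout, chromosome 8 drops to about 0 after run 14, chromosome 1 rises after run 14, and chromosomes 3 and 17 lie below 0 in 23 of 24 runs (their chromosome medians are above 0 on TPM as fitted).

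Chromosome medians were also taken in each library. The median deviation of chromosome 18 genes from their mean over libraries was 0.091 to 0.129 in BdP tumours and -0.182 to -0.041 in WT tumours. For chromosome 8 it was 0.028 to 0.067 in BdP tumours and -0.064 to -0.037 in WT tumours, and for chromosome 1 it was 0.015 to 0.051 in BdP tumours and -0.079 to 0.009 in WT tumours. For chromosome 3 it was -0.110 to -0.061 in BdP tumours and 0.007 to 0.140 in WT tumours, and for chromosome 17 it was -0.106 to -0.018 in BdP tumours and 0.014 to 0.122 in WT tumours. In none of the 5 do the genotypes overlap, but on chromosome 1 WT cisplatin 3, at 0.009, lay above 0 as the BdP tumours did. The 5 were chosen after the values were seen, so this is a description.

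**Figure D5:**
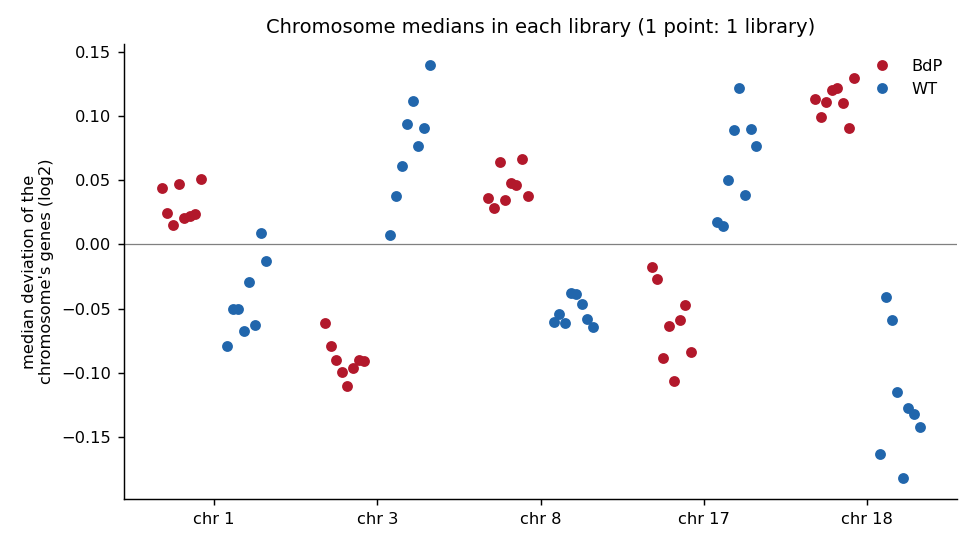
Median deviation (log2) of the tested genes of 5 chromosomes from their mean over libraries, with 1 point for each of 8 BdP (left) and 8 WT (right) libraries. The genotypes do not overlap on any of them, with BdP above WT on chromosomes 1, 8 and 18 and below WT on chromosomes 3 and 17.

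Single genes of these chromosomes differed by more than the chromosome medians. On chromosome 3, Gnb4, a G protein beta subunit, had 1.498, 1.83 and 2.32 FPKM in BdP tumours, against 3.11, 3.47 and 4.04 FPKM in WT tumours (-0.67 ± 0.07, adjusted p = 8.55e-05). Lix1l fell by 0.60 ± 0.07, Eif4e, which binds the cap of mRNAs, by 0.44 ± 0.06, and Ssr3, a subunit of the translocon-associated complex, by 0.59 ± 0.08 (adjusted p of 0.000166 to 0.000605). On chromosome 17, Jpt2 fell by 0.71 ± 0.07 (adjusted p = 2.81e-05) and Yipf4 by 0.44 ± 0.07 (adjusted p = 0.00272). On TPM as fitted, Eif4e and Yipf4 had positive differences.

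On chromosome 18, Rock1, a kinase that drives actomyosin contraction, had 9.65, 11.4 and 12.4 FPKM in BdP tumours, against 5.79, 7.40 and 8.40 FPKM in WT tumours (0.60 ± 0.08, adjusted p = 0.000714). Ythdc2, an RNA helicase, rose by 0.50 ± 0.08 (adjusted p = 0.00226). Pcdhgb1, which shares its constant exons with the other gamma protocadherins and so may share their reads, rose by 1.03 ± 0.16 (adjusted p = 0.00137). On chromosome 1, Arhgap30, which inactivates small GTPases, rose by 0.45 ± 0.07 (adjusted p = 0.00127) and Acbd3, a Golgi adaptor, by 0.40 ± 0.07 (adjusted p = 0.00323). On proximal chromosome 8, Ash2l, a subunit of histone H3 lysine methyltransferase complexes, rose by 0.40 ± 0.06 (adjusted p = 0.00118) and Zdhhc2, a protein palmitoyltransferase, by 0.93 ± 0.14 (adjusted p = 0.00153). Hgsnat and Adgra2 lie on the same stretch of chromosome 8, and Npc1 and Mppe1 on chromosome 18. Hgsnat, Npc1 and Adgra2 are also called members of the lysosomal and Wnt lists above, and are given as examples only. Positions of most other called list members are not given here, so more of them may lie on these chromosomes. The list shares above are set beside all genes tested, not beside the genes of the same chromosomes. How far the list counts follow the shifts of these chromosomes was not tested.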

How the data were processed

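RNA of 16 tumours was sequenced. The deposited table holds FPKM per gene. Per the submitters' processing notes, CASAVA, HISAT2 2.0.5 and featureCounts 1.5.0-p3 were used with GRCm38 (mm10). Whether counting used strand is not given in the sources used here. FPKM values multiplied by gene length gave whole multiples of 1 read in 100% of values (tolerance 0.1 read), and the authors' scaling equalled median-of-ratios size factors. Symbols turned to dates (27) were restored with GENCODE M21. Genes that reached 1 FPKM in 4 or more libraries were fitted as log2(FPKM + 1) on genotype and treatment in limma 3.58.1 (R 4.3.3; empirical Bayes moderation with a trend in the variance). The code was tested on simulated data. P-values measure the spread between these libraries.

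Named by rule were, per direction, the 12 called, non-overlapping protein-coding genes with the largest difference and 5 FPKM or more on average in the higher genotype, the 3 with the smallest p, the 6 genes around Pros1, and the members of smallest p of each list (up to 5) and chromosome (up to 4). Genes without a proper symbol were passed over for the first, and a few genes that the rule takes in are not reported here. The members, lists and tests were chosen with earlier results of these data known. Alternatives changed the pseudocount (0.1), the filter, the scaling, the covariates, the weights or the libraries, and used limma-voom on the recovered reads. Ptprc as a covariate was added after the data were seen.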

Additional observations from a re-analysis of the deposited data

Results flagged for a closer look

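In 372 groups of 4 libraries (93 named genes in 4 groups), 21 libraries stood apart from the other 3 of their group by Dixon's test at the 95% level, close to the 1 in 20 that chance gives. In BdP tumours these were Pros1 in BdP PBS 4 (1.24 FPKM against 1.58 to 1.61 in the others), Jph2 in BdP cisplatin 1 (2.02 against 1.68 to 1.69), Gpnmb in BdP PBS 1 (640 against 452 to 479) and, in BdP cisplatin 3, Fscn1 (8.37 against 3.44 to 3.96) and Enah (2.90 against 4.69 to 5.00). In WT cisplatin 2 they were Hgsnat (81.1 FPKM against 44.2 to 48.8), Adgra2 (11.6 against 6.05 to 6.72), Lrp5 (14.8 against 9.53 to 10.2), Canx (190.0 against 169 to 171), Tyro3 (3.00 against 1.92 to 2.07) and Nr5a1 (1.36 against 2.26 to 2.41). In WT cisplatin 1 they were Ddah2 (17.6 FPKM against 11.97 to 12.8), Mtss1 (3.48 against 5.23 to 5.32) and Gpnmb (597 against 728 to 737). WT cisplatin 3 stood apart for Hsp90ab1 (1087 FPKM against 1154 to 1168) and WT cisplatin 4 for Yipf4 (28.5 against 23.5 to 24.1). WT PBS 1, in which 76.9% of reads were mitochondrial, stood apart for Ndufa4l2 (4.68 FPKM against 2.01 to 2.11) and Nr5a1 (3.14 against 0.202 to 0.461). WT PBS 3 stood apart for Fscn1 (13.9 FPKM against 7.14 to 7.92) and WT PBS 4 for Foxo4 (9.47 against 12.2 to 12.6) and Gsta4 (58.6 against 74.2 to 77.8).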

How the results depend on the processing

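Counts of genes higher and lower in BdP tumours were 181 higher with no filter on low values, 55 and 38 with equal sums, 794 and 806 with array weights, 73 and 68 with Ptprc as covariate, 1 and 2 in PBS libraries alone and 99 and 152 in cisplatin libraries alone; on TPM 33 were lower. Leaving out 1 library gave 178 to 901 higher and 219 to 650 lower. Non-overlapping genes numbered 40 higher and 6 lower on TPM, 20 lower with equal sums, 141 and 238 without the 3 libraries richest in mitochondrial reads, 414 and 532 in PBS libraries alone, 790 and 813 in cisplatin libraries alone, and 74 to 136 higher and 127 to 166 lower without 1 library. Groups of fewer libraries overlap less by construction. Genes called in each treatment alone numbered 4 with a pseudocount of 0.1, 0 with no filter, 4 on TPM, 0 with equal sums and 0 to 2 without 1 library. The interaction was called for 1 gene on TPM and 0 to 1 without 1 library. Pros1 kept its call in every setting but PBS libraries alone (-1.54, adjusted p = 0.0807), and ran between -1.73 and -1.59 without 1 library.

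With the replicate block 265 genes were higher, 289 lower and 0 called in each treatment alone. Same-numbered libraries of different groups had correlations of deviations from -0.613 to 0.415. Differently numbered libraries were not compared, so whether replicates of a number shared a litter or day cannot be read from these values. Reversed on TPM were Cnn3 (0.072), Gpnmb (0.16), Ccna2 (0.19), Mcm7 (0.35), Bak1 (0.048), Canx (0.28), Hsp90ab1 (0.28), Eif4e (0.10), Yipf4 (0.10), Car9 (0.15) and Itga5 (0.15). Among genes never called, Gas6 was -0.055 without WT PBS 4 (up to 0.22 without others), Tyro3 -0.042 in PBS libraries alone and -0.013 without BdP cisplatin 1, and with Ptprc as covariate Ptpn1 was -0.21 and Lyz2 -0.10. Of 82 named genes called, the calls of 79 held with limma-voom on recovered reads, 64 without the mitochondria-rich libraries, 48 with Ptprc as covariate and 21 on TPM. The cause of these changes was not tested. WT PBS 1 rests on 2322202 reads outside mitochondrial genes, which limits low genes there.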
